A study of Mus musculus with 12 samples.

Results

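The genes described here drive and carry out the cell cycle: 40 genes of DNA replication and mitosis, chosen by name for their known roles, with earlier results of these data in view. Of these, 38 were measured by a transcript cluster with 1 gene symbol, among 22180 genes so measured. Ccne2 shares its cluster with Ints8, and no cluster was listed with the symbol Ccnb1, so neither of those genes is given a value. By role, 14 members (13 measured) were set down as S phase genes, which prepare and copy DNA, 25 (24 measured) as mitotic genes, which act from the entry into mitosis to the separation of daughter cells, and Ccnd1, cyclin D1 of the G1 phase, stood apart.

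A dividing cell turns on these genes in waves. In late G1, E2F factors raise the genes for DNA replication, and later B-MYB and FOXM1, acting with the MuvB complex, raise the genes for mitosis. In quiescent cells the DREAM complex holds both waves down. Adult hepatocytes rarely divide, many are polyploid, and the liver also holds endothelial, immune and other cells that can cycle. Whole-liver mRNA of these genes may therefore come from a small share of cells, but which cells make it was not measured.

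Livers came from 12 female mice on the C57Bl/6 background, adults of 12 to 14 weeks: 6 wild-type animals (WT) and 6 lacking Ppara (Ppara KO), which encodes PPARα, a nuclear receptor for fatty acids. The labels give no details of the knockout allele and no treatment, and number the animals 1 to 6 in each genotype. Each animal gave 1 Affymetrix MoGene 2.0 ST array, whose values are on the log2 scale after RMA, a normalization that brings arrays to one distribution and compresses the differences of dim genes. In bulk tissue, fewer cycling cells and less mRNA per cycling cell cannot be told apart.

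The arrays had medians of 4.13 to 4.17, and the median correlation of an array with its own group was 0.992 to 0.993. Hepatocyte markers were at the same height in all animals (mean of 9 genes 11.14 to 11.24 in WT against 11.03 to 11.19 in Ppara KO), with 0 of 9 called by limma and 1 lower at an unadjusted p under 0.05. The share of all genes at that unadjusted threshold was not counted. The Ppara cluster itself read 7.71 to 8.14 in WT animals, and Ppara KO animals spanned 7.81 to 8.16. Whether its probes lie in the disrupted stretch is unknown here, and the cluster does not check the labels. As a gauge of background, 1088 olfactory receptor genes, which liver is not known to express, had a 95th percentile of 3.96 in their mean level. Of the 38 members, 31 lay above it, and Cdc6, Foxm1, Bub1, Cenpe, Cdca8, Birc5 and Kif23 lay below, where differences are the most compressed.

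Mitotic genes were lower in Ppara KO livers, and most S phase genes were not called. With limma's moderated test, a Benjamini-Hochberg adjusted p under 0.05 over all 22180 genes and differences taken as Ppara KO minus WT, 20 of the 24 mitotic genes fell and 0 rose, against 5.77% of all genes called lower and 4.46% called higher (10.2% in either direction). Of the 13 S phase genes, 1 fell (Mcm7), 1 rose (Tk1) and 11 were not called, and Ccnd1 was not called. The median log2 difference was -0.76 for the mitotic genes, -0.15 for the S phase genes and 0.0090 for all genes. The falls of the 20 mitotic genes ran from 1.30-fold to 2.65-fold, with adjusted p-values from 6.06e-04 to 0.0334, and 16 of them reached 1.5-fold, as did 1.53% of all genes. Whether the mitotic and the S phase genes differ from each other was not tested.

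**Figure D1:**
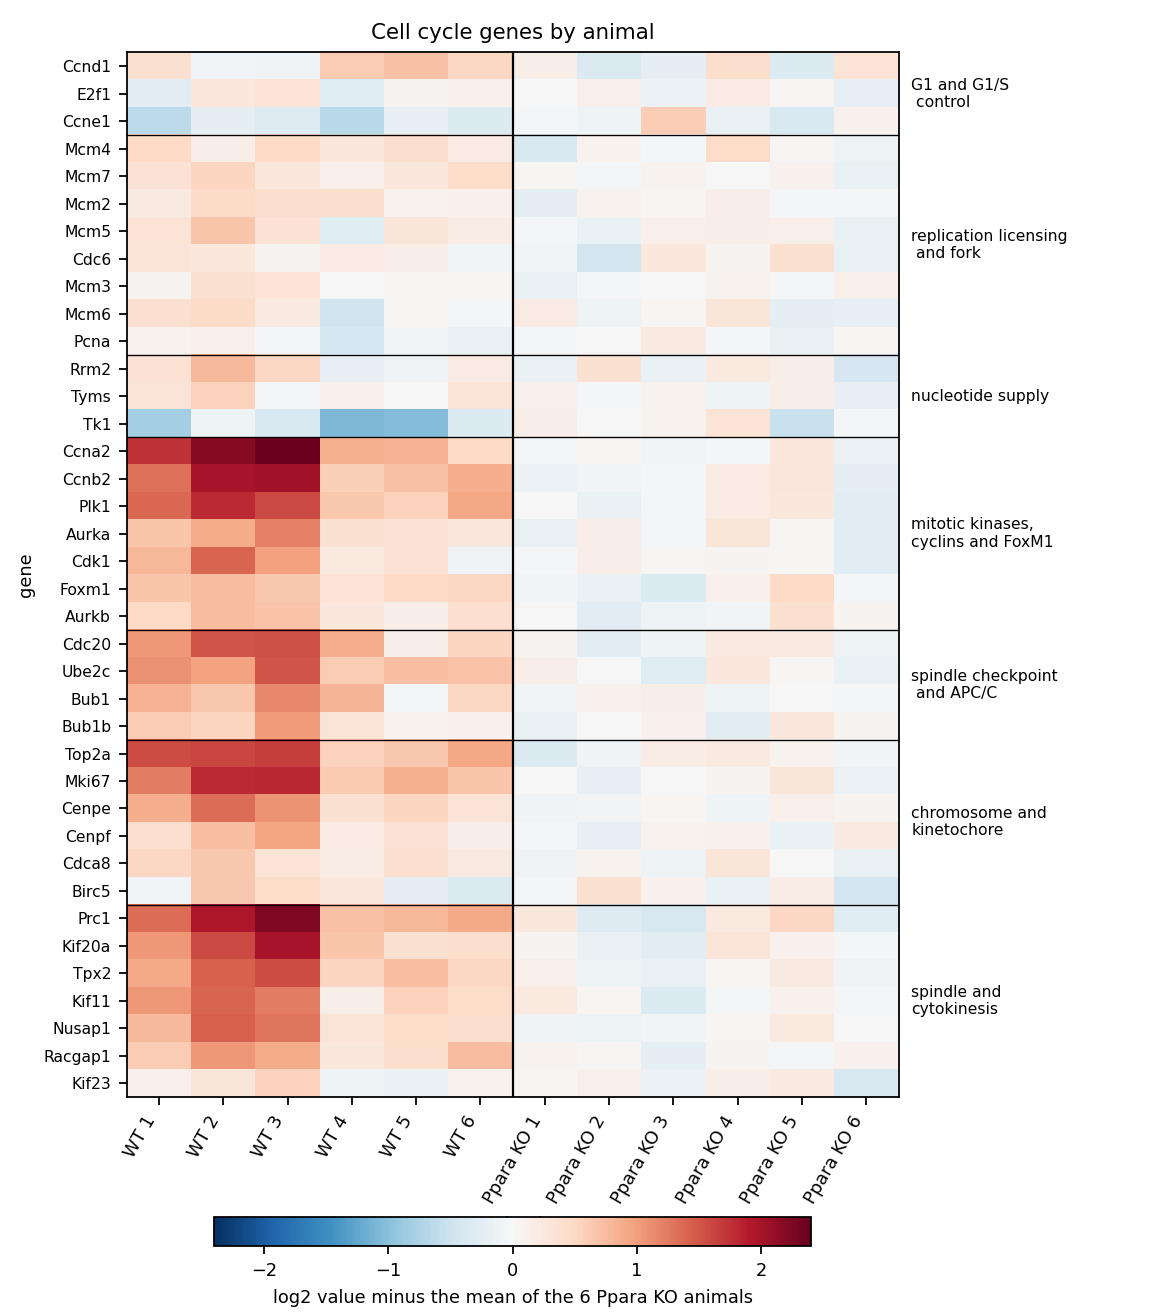
Each row is 1 of the 38 measured genes and each column 1 animal, and the colour gives the log2 value minus the mean of the 6 Ppara KO animals (red higher, blue lower). Most mitotic rows are red in the WT animals and darkest in WT 1, 2 and 3, with Birc5 and Kif23 pale, whereas the rows of replication and nucleotide genes are paler and Tk1 is bluest in WT 1, 4 and 5.

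The mitotic cyclins and kinases held the largest fall among the members. Ccna2, cyclin A2, which drives S phase progress and the entry into mitosis, read 6.27, 6.72, 6.90, 5.39, 5.38 and 5.02 in WT 1 to 6 and 4.50, 4.58, 4.48, 4.51, 4.80 and 4.39 in Ppara KO 1 to 6. The genotypes did not overlap, and the Ppara KO animals lay within a much narrower band than the WT animals (SD 0.14 against 0.79). Ccna2 fell by 1.40 (SE 0.27, adjusted p 0.00379). Ccnb2, cyclin B2, a partner of CDK1, ran from 5.49 through a median of 6.02 to 6.95 in WT and from 4.69 through 4.88 to 5.20 in Ppara KO, again without overlap, and fell by 1.24 (SE 0.23). Plk1, the polo-like kinase of centrosome maturation and mitotic entry, had WT values of 4.81 to 6.06 (median 5.41) and Ppara KO values of 3.99 to 4.52 (median 4.24), and fell 2.21-fold.

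The other regulators of this group fell less. Aurka, the aurora kinase of spindle poles, fell 1.54-fold, from a WT median of 4.92 to 4.41, and Aurkb, the aurora kinase of the chromosomal passenger complex, 1.37-fold, from 4.98 to 4.50. For both, the lowest WT animal lay below the highest Ppara KO animal, and the call of Aurkb ended without any 1 of 4 animals: WT 2 and 3 and Ppara KO 2 and 3. Foxm1, the transcription factor of mitotic genes, ran from 3.77 to 4.17 in WT and from 3.11 to 3.91 in Ppara KO and fell by 0.56 (SE 0.12). Ppara KO 5 was the one animal of its group within the WT range of Foxm1. Cdk1, the central mitotic kinase, missed the threshold: its difference was -0.61 ± 0.20 (log2 ± SE, adjusted p 0.0599), with WT 6 at 4.49, inside the Ppara KO range of 4.32 to 4.73.

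Genes of the spindle checkpoint and of the anaphase-promoting complex, the ubiquitin ligase that ends mitosis, followed the same direction. Ube2c, the ubiquitin-conjugating enzyme that works with this ligase, had WT values of 5.34, 5.57 and 6.23 (lowest, median, highest) and Ppara KO values of 4.45, 4.74 and 4.99. It had the smallest adjusted p of the members (6.06e-04), with a difference of -0.93 ± 0.14. Cdc20, an activator of the ligase, fell 1.92-fold, but WT 5 at 5.25 lay below the highest Ppara KO values of 5.31. Bub1, a checkpoint kinase, fell by 0.65 (SE 0.15) at a level below the background gauge, and Bub1b, which encodes the checkpoint protein BUBR1, was not called (-0.44 ± 0.14, adjusted p 0.0665).

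Among genes of chromosome structure and kinetochores, 5 of 6 fell. Mki67, whose protein coats chromosomes during mitosis, read 6.27, 6.83, 6.84, 5.68, 5.89 and 5.70 in WT 1 to 6 and 4.85 to 5.32 in Ppara KO, and Top2a, the topoisomerase that untangles sister DNA, read 5.03, 5.06, 5.12, 4.01, 4.11 and 4.38 against 3.13 to 3.68. Both separated the genotypes completely, with WT 1, 2 and 3 above WT 4, 5 and 6. Their folds were 2.23 and 2.24. Cenpe, a kinetochore motor, fell 1.68-fold without overlap (3.62 to 4.64 against 3.19 to 3.42) at a level below the background gauge, while Cenpf, a kinetochore protein, and Cdca8, borealin of the chromosomal passenger complex, fell 1.38-fold and 1.30-fold with overlap. The call of Cenpf ended without any 1 of 6 animals: WT 1, 2 and 3 and Ppara KO 1, 2 and 5. Birc5, survivin of the same complex, was not called (-0.12 ± 0.17), and its cluster lay below the background gauge.

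Spindle and cytokinesis genes fell in 6 of 7 cases. Prc1, which bundles microtubules at the spindle midzone, ran from 4.43 through 4.85 to 5.96 among WT animals and from 3.34 through 3.70 to 4.22 in Ppara KO, a 2.50-fold fall without overlap. Kif20a, a midzone kinesin, fell 2.01-fold (4.04 to 5.66 against 3.41 to 3.99), Tpx2, which activates aurora A and nucleates microtubules, 1.92-fold (4.67 to 5.74 against 4.00 to 4.40), and Nusap1, a spindle-associated protein gene, 1.71-fold (4.21 to 5.33 against 3.78 to 4.13). In each of these the genotypes were apart. Racgap1, the GTPase-activating subunit of centralspindlin, fell 1.57-fold and was apart as well, and Kif11, the kinesin that pushes spindle poles apart, fell 1.74-fold with WT 4 at 4.09, below the highest Ppara KO value of 4.19. Kif23, the kinesin partner of Racgap1 in centralspindlin, was not called (-0.13 ± 0.13, adjusted p 0.602), also below the gauge. In all, 12 of the 24 mitotic genes had every WT animal above every Ppara KO animal, as had 3.78% of all genes, and 1 S phase gene, Mcm7, did so too. No member had every WT animal below every Ppara KO animal, the case for 2.73% of all genes.

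**Figure D2:**
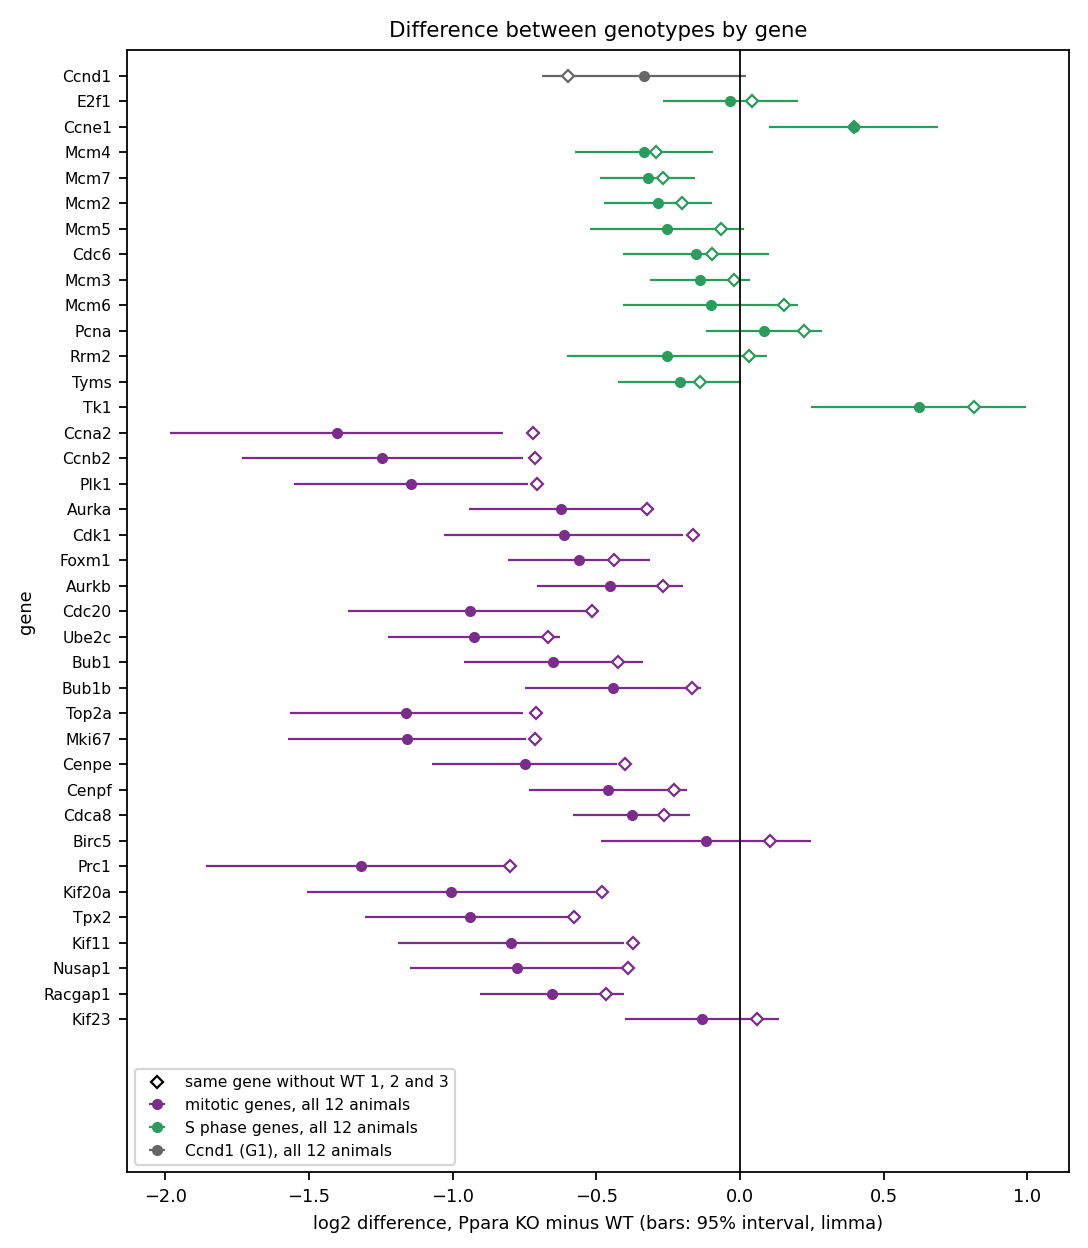
The log2 difference (Ppara KO minus WT) of each gene on the horizontal axis, with filled points and 95% limma intervals from all 12 animals and open diamonds from the 9 animals left without WT 1, 2 and 3. The mitotic genes (purple) lie left of 0 and their diamonds closer to it, those of Birc5 and Kif23 just past it, whereas the S phase genes (green) lie nearer 0 or, for Ccne1 and Tk1, well to its right.

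S phase genes gave a mixed picture. Mcm7, a subunit of the MCM helicase that unwinds DNA, fell by 0.32 (SE 0.077, adjusted p 0.0149), with WT values of 5.49, 5.67 and 5.88 (lowest, median, highest) against 5.19, 5.38 and 5.47. Its neighbours in the helicase had differences of -0.29 (Mcm2, adjusted p 0.0533), -0.14 (Mcm3), -0.33 (Mcm4, adjusted p 0.0766), -0.25 (Mcm5) and -0.10 (Mcm6), all with overlap between genotypes and none called. Cdc6, which loads the helicase onto origins, and Pcna, the sliding clamp of DNA polymerases, stood at -0.15 and 0.083. The 95% interval of Pcna, -0.12 to 0.29, bounds its change.

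Of the enzymes that supply nucleotides, Tk1, thymidine kinase of the salvage pathway, was higher in Ppara KO: 6.72, 7.21 and 7.70 (lowest, median, highest) in WT and 7.26, 7.85 and 8.13 in Ppara KO. It rose by 0.62 (SE 0.18, adjusted p 0.0346), although Ppara KO 5 at 7.26 lay among the WT values, and the call ended without any 1 of 8 animals: WT 1, 4 and 5 and Ppara KO 1, 2, 3, 4 and 6. Rrm2, the small subunit of ribonucleotide reductase (-0.25 ± 0.16), and Tyms, thymidylate synthase (-0.21 ± 0.10), were not called. Neither was any measured gene of G1 and G1/S control: Ccne1, cyclin E1, which starts DNA replication with CDK2, had 0.40 ± 0.14 (adjusted p 0.0874), E2f1, the factor that turns on S phase genes, -0.033 ± 0.11, and Ccnd1, which couples growth signals to the cycle, -0.33 ± 0.17. For the 11 S phase genes without a call, the widest bounds of the 95% intervals were -0.60 and 0.69, and 8 of the 11 intervals held 0.

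Among the WT animals, 1 to 3 stood above 4 to 6 for mitotic genes, and by less for S phase genes. Averaged over the 24 mitotic genes, WT 1, 2 and 3 stood 0.87, 1.22 and 1.28 log2 units above the mean of the Ppara KO animals, WT 4, 5 and 6 stood 0.44, 0.42 and 0.44 above it, and single Ppara KO animals lay between -0.11 and 0.17. Averaged over the 13 S phase genes, WT 1, 2 and 3 stood at 0.092, 0.33 and 0.17 on this scale. WT 4, 5 and 6 stood at -0.18, -0.0030 and 0.047, and Ppara KO animals lay between -0.11 and 0.12. In 20 of the 24 mitotic genes each of WT 1 to 3 was above each of WT 4 to 6, which held for 6.61% of all genes, and in 5 of the 13 S phase genes. The highest of the 12 animals was WT 3 for 14 mitotic genes and WT 2 for the other 10. This split was seen in the same genes that it describes, and the labels name no difference between the animals, so no test of them is given. Ccnd1 ran the other way (as did 5.34% of all genes), at 8.40, 7.96 and 7.96 in WT 1 to 3 and 8.64, 8.74 and 8.53 in WT 4 to 6.

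WT 4 to 6 were still above Ppara KO in part of the genes. All of WT 4 to 6 lay above all 6 Ppara KO animals in 12 of the 24 mitotic genes (5.63% of all genes), among them Ccna2, Ccnb2, Plk1, Ube2c, Mki67, Top2a and Prc1. These are the same 12 genes in which all 6 WT animals lay above, which fixes the order of WT 4 to 6 in them. Ccnd1 had WT 4 to 6 all above as well, but not all 6 WT animals, and WT 4 to 6 are its higher WT animals. Its difference was -0.60 without WT 1 to 3, against -0.33 with all animals, and was not called (adjusted p 0.0799). In none of the members were WT 4 to 6 all below, against 5.3% of all genes. With WT 1 to 3 left out, 11 of the 24 mitotic genes were called lower (2.29% of all genes), and their median difference was -0.43. Ccna2 then had a difference of -0.72 (adjusted p 0.00402) and Mki67 of -0.71 (adjusted p 0.00351), but Foxm1 (adjusted p 0.130), Aurka, Aurkb, Bub1, Cdc20, Cenpf, Cdca8, Kif11 and Kif20a lost the call. With WT 4 to 6 left out instead, at the same number of animals, 22 of the 24 were called (3.97% of all genes) with a median of -1.13. The split was seen in these same mitotic genes. Leaving out their lower WT animals therefore enlarges the differences, and leaving out the higher ones shrinks them. The calls and adjusted p-values of these fits are not tests separate from the split. Without WT 1 to 3, Mcm7 had a difference of -0.27, against -0.32 with all animals, and was not called (adjusted p 0.157). WT 4 to 6 all lay above the Ppara KO animals for Mcm7, which is fixed because all 6 WT animals did so. Without WT 4 to 6, Mcm7 had a difference of -0.37 and was called lower (adjusted p 0.0325). Tk1 was still called higher without WT 1 to 3, by 0.82 (adjusted p 0.0382), as were 1.68% of all genes.

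**Figure D3:**
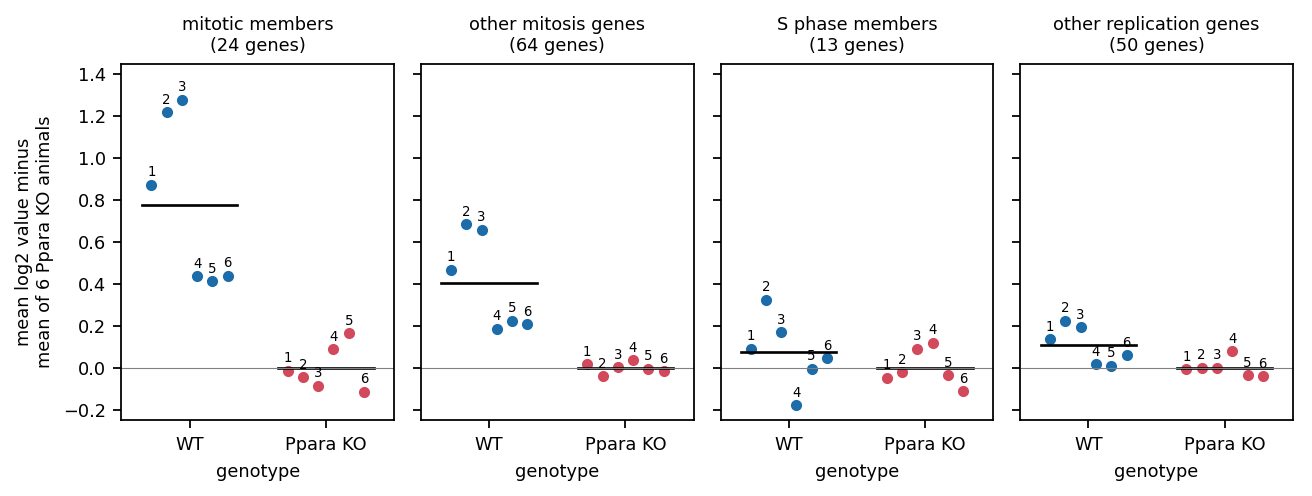
Mean log2 value of 4 groups of genes in each animal (points, numbered by animal) minus the mean of the 6 Ppara KO animals, with black bars at the group means. For the mitotic members and the other mitosis genes, WT 1, 2 and 3 lie above WT 4, 5 and 6, which lie above the Ppara KO animals. For S phase members and other replication genes, WT 1, 2 and 3 also lie above WT 4, 5 and 6, by less, and the genotypes overlap.

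WT animals varied more than Ppara KO animals in these genes. The median within-group SD of the 24 mitotic genes was 0.44 in WT and 0.19 in Ppara KO. The SD was larger in WT for 23 of the 24, beside 10932 of all 22180 genes. Over all genes the medians were 0.155 and 0.156. For S phase genes they were 0.20 and 0.15. The split among the WT animals described above itself raises the WT SD of a gene. The larger SD of the mitotic genes in WT is therefore not a result separate from that split.

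Promoter sequences are shown for the pair of genes with the smallest adjusted p in each phase group, to set the elements of mitotic promoters beside those of S phase promoters. They come from RefSeq (GRCm38.p6), whose promoter table held 32 of the 40 members, and give the 250 bases before the transcription start, 5′ to 3′ on the gene's strand. Capitals mark matches, on either strand, to the CHR element bound by the MuvB complex (TTTGAA or TTCGAA), the box bound by NF-Y (CCAAT) or an E2F site (TTTGGCGC, TTTCGCGC, TTTCCCGC or TTTGCCGC). Ube2c lies at chr2:164769679-164769928 (+ strand), Top2a at chr11:99024190-99024439 (- strand), Mcm7 at chr5:138171884-138172133 (- strand), as 1 of its 2 listed promoters, and Tk1 at chr11:117826015-117826264 (- strand).
Ube2c: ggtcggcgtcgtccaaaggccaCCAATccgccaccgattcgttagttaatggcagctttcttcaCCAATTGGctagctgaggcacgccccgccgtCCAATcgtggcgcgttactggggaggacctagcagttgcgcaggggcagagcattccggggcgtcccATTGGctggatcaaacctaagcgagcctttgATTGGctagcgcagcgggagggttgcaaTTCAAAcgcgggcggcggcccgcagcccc
Top2a: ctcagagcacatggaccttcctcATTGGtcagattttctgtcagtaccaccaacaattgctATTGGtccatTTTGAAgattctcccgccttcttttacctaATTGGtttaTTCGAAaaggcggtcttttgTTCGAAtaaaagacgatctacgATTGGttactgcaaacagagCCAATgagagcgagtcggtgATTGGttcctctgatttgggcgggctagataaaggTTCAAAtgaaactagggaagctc
Mcm7: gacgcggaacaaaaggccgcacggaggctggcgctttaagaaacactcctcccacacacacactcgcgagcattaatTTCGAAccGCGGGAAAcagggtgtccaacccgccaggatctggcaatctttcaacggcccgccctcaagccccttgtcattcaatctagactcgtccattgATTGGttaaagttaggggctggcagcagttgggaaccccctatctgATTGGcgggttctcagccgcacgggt
Tk1: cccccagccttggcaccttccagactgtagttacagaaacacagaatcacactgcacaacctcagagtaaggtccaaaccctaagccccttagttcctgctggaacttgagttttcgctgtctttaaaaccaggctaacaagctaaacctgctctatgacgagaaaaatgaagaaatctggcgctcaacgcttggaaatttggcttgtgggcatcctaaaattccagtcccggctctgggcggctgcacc

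The mitotic promoters carried the NF-Y box and the CHR element, and the S phase promoters the NF-Y box and the E2F site, more often than promoters in general. In Top2a the search found 6 NF-Y boxes and 4 CHR elements, and in Ube2c 6 NF-Y boxes, of which 1 pair overlaps, and 1 CHR element that starts 29 bases before the transcription start. In Mcm7 it found 1 E2F site, 1 CHR element and 2 NF-Y boxes, and in Tk1 no match. The 21 mitotic promoters belong to 20 genes, of which Prc1 has 2 promoters and Ccnb1 has no value on the arrays. Ccna2, Foxm1, Aurkb, Kif20a and Tpx2 were not among them. The 13 S phase promoters belong to 12 genes, of which Mcm7 has 2 promoters. Across the upstream 250 bases, the NF-Y box was present in 19 of 21 mitotic promoters (90.5%), 8 of 13 S phase promoters (61.5%) and 33.8% of the 32851 promoters in the table. The CHR element was present in 9 of 21 (42.9%), 2 of 13 (15.4%) and 17.1%, and the E2F site in 1 of 21 (4.76%), 4 of 13 (30.8%) and 1.86%. In a window that added the 50 bases after the start, chosen after the first counts were seen, CHR elements were present in 17 of 21 mitotic promoters (81.0%), 2 of 13 S phase promoters and 19.2% of all. The sequence TTCGAA reads the same on both strands. These shares describe letters in a window, were not tested and show no binding.

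**Figure D4:**
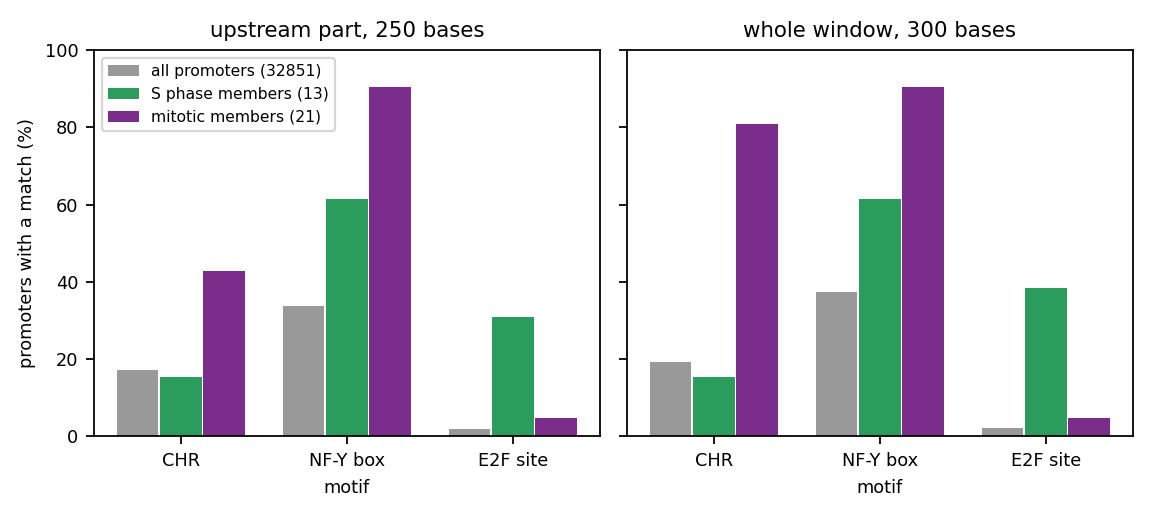
Percentage of promoters (vertical axis) with at least 1 match to each motif, in all 32851 promoters, in 13 promoters of S phase members and in 21 of mitotic members, for the 250 upstream bases (left) and the 300-base window (right). The purple bars of the CHR element and the NF-Y box exceed the grey bars of all promoters, as do the green bars of S phase members for the NF-Y box. For the E2F site the green bars are the highest.

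Among genes of mitosis outside the 40 members, 64 were measured in a list of 67, of which 23 fell, 1 rose (Gtse1, 0.47 ± 0.11) and 40 were not called, beside 5.77% of all genes called lower. The median difference was -0.37. Without WT 1 to 3, 8 were called lower, beside 2.29% of all genes, and 30 of the 64 lay above the background gauge. Ect2, the exchange factor that activates RhoA for cytokinesis, had the largest fall of them, from 5.72, 6.32 and 7.11 (lowest, median, highest) in WT to 4.45, 4.68 and 5.02 in Ppara KO, which is 3.24-fold. Cdca3, a cell division cycle associated gene, fell 1.55-fold with tight groups (4.54 to 4.68 against 3.79 to 4.14, adjusted p 3.64e-05), and in this gene WT 1 to 3 did not stand above WT 4 to 6. Spc25, a subunit of the NDC80 kinetochore complex, and Mad2l1, the checkpoint protein MAD2, each fell by 0.82 (SE 0.11 and 0.12). Bub3, a checkpoint protein gene (-0.014 ± 0.070), Spc24, a partner of Spc25 (0.037 ± 0.12), and Smc4, a condensin subunit gene (-0.26 ± 0.084), were the highest in level among genes of this list without a call.

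Of the genes of DNA replication outside the members, 6 fell and 2 rose of 50 measured in a list of 53, beside 5.77% and 4.46% of all genes, with a median difference of -0.090. Without WT 1 to 3, limma called 0 of them lower, while 6 were lower and 3 higher at an unadjusted p under 0.05. The share of all genes at that unadjusted threshold was not counted. In 14 of the 50, each of WT 1 to 3 was above each of WT 4 to 6, beside 6.61% of all genes. The difference between the replication and the mitosis lists was not tested. Esco2, a cohesin acetyltransferase gene read below the background gauge, fell 1.67-fold, and Pole and Pold1, the catalytic subunits of DNA polymerases epsilon and delta, 1.35-fold and 1.29-fold. Mcm10, a replication initiation factor gene, rose 1.23-fold without overlap (5.43 to 5.67 against 5.73 to 6.00). Dnmt1, the maintenance DNA methyltransferase gene (-0.068 ± 0.078), Gins4, a subunit gene of the replicative helicase (0.073 ± 0.067), and Rpa1, which encodes a single-strand DNA binding protein (0.018 ± 0.061), were not called.

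E2f8, Wee1 and Cdkn1a, regulators of the cycle, had larger differences than any member, and in none of them did WT 1 to 3 all lie on one side of WT 4 to 6. E2f8, an E2F family repressor known for its part in hepatocyte polyploidy, read 6.07, 6.34 and 6.63 (lowest, median, highest) in WT and 4.03, 4.43 and 5.10 in Ppara KO, a 3.52-fold fall (adjusted p 7.10e-06). Its means in WT 1 to 3 and WT 4 to 6 were 6.36 and 6.34. Rbl1, the pocket protein p107, fell 1.31-fold and Lin52, a MuvB subunit gene, rose by 0.32 on the log2 scale, both with overlap. These were the calls among 18 genes of E2F, RB and DREAM regulation, 2 lower and 1 higher, beside 5.77% and 4.46% of all genes. In this list Rbl2, Tfdp1 and Lin37 were the highest in level without a call (0.0042, -0.13 and -0.16).

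Wee1, the kinase that holds CDK1 inactive before mitosis, had the largest rise among the cell cycle genes listed, 4.84-fold, from 4.24, 4.90 and 5.34 (lowest, median, highest) in WT to 6.77, 7.13 and 7.47 in Ppara KO (adjusted p 8.00e-07). It is also driven by the circadian clock. The clock output gene Dbp lay at 5.99 to 7.09 in WT against 9.05 to 10.17 in Ppara KO, so genotype and clock state cannot be told apart, and within WT, animals 1 to 3 (mean 6.58) all lay above animals 4 to 6 (mean 6.10). Its part in the mitotic differences was not tested. Ccng2, an atypical cyclin linked to cell cycle exit, fell 2.13-fold (5.58 to 6.07 against 4.48 to 4.98), and Cdc25a, the phosphatase that opposes WEE1, rose 1.30-fold. Of 15 measured cyclin and CDK genes, 1 was thus called lower and 2 higher, beside 5.77% and 4.46% of all genes. No other was called, including Ccni, Ccnl2 and Ccng1, the highest in level (-0.014, 0.16 and -0.20).

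Of 7 CDK inhibitor genes, Cdkn1a, which encodes p21, fell and Cdkn1b, which encodes p27, rose. Over all genes, 5.77% were called lower and 4.46% higher. Cdkn1a ran from 7.86 to 8.57 in WT and from 5.17 to 7.48 in Ppara KO, a 3.88-fold fall (adjusted p 8.28e-04). Cdkn1b went from 5.95 to 6.16 in WT to 6.26 to 6.41 in Ppara KO, a rise of 0.27 without overlap (adjusted p 0.00889). Cdkn2c, Cdkn2d and Cdkn1c were not called (-0.11, 0.16 and 0.12).

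**Figure D5:**
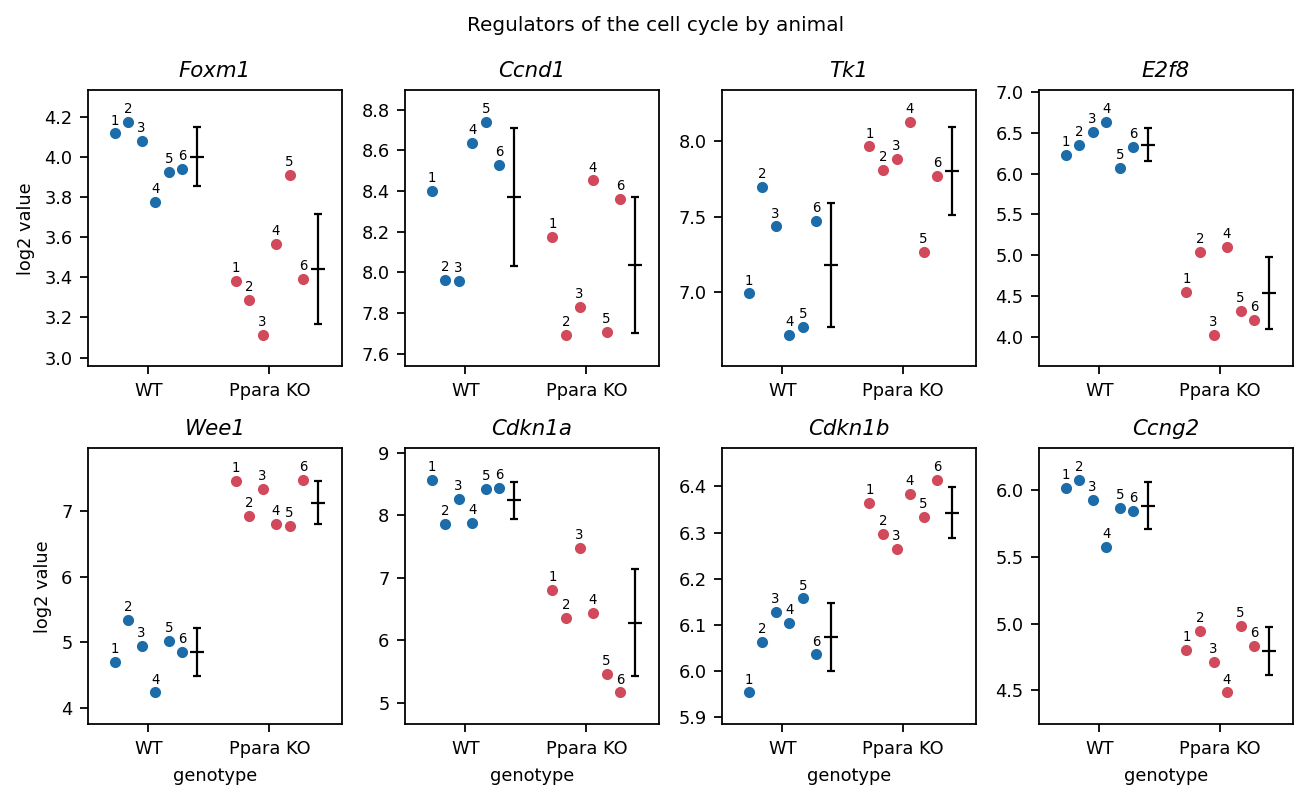
Log2 values (vertical axes, each with its own range) of 8 regulators in each animal, numbered, with the mean and SD of the 6 animals beside each group. E2f8, Wee1, Cdkn1a, Cdkn1b and Ccng2 separate the genotypes, whereas Foxm1, Ccnd1 and Tk1 overlap.

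Markers of other cell types were read beside these results. Over all genes, 5.77% were called lower and 4.46% higher (10.2% in either direction). Kupffer cell and macrophage markers had 1 call of 10, Cd5l (0.45 ± 0.13), and averaged 7.50 to 7.93 in WT, while Ppara KO animals had 7.76 to 8.48. By limma, 0 of 8 endothelial and 0 of 8 stellate cell markers were called, although 4 endothelial markers were lower, and 2 stellate markers lower and 1 higher, at an unadjusted p under 0.05. Lymphocyte markers had 1 of 9 (Cd8a, 0.46 ± 0.11), and cholangiocyte markers had 2 of 5, Krt19 and Sox9, both lower by 0.26 and 0.39. Erythroid markers had 0 of 7 called, 0 at an unadjusted p under 0.05, and ran from 3.91 to 4.20 in WT against 4.04 to 4.17 in Ppara KO. The share of all genes at an unadjusted p under 0.05 was not counted. The shares above are for adjusted p and give no background for the unadjusted counts. Adipocyte markers, with 2 of 7 called lower (Lipe and Adipoq) and a median difference of -0.92, averaged 5.34, 4.49, 6.13, 4.41, 6.19 and 4.80 in WT 1 to 6 against 4.22 to 4.49 in Ppara KO, and their part in the mitotic differences was not tested.

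A pair of cell type lists had WT 1 to 3 above WT 4 to 6 as well. So had the means of other mitosis genes, of other DNA replication genes and of E2F, RB and DREAM regulators. Neutrophil and myeloid progenitor markers averaged 3.69, 3.79 and 3.83 in WT 1 to 3 and 3.62, 3.45 and 3.48 in WT 4 to 6. In Ppara KO they ran from 3.36 to 3.99. Of the 9 markers, 1 was called lower (Prtn3, -0.59 ± 0.13), beside 5.77% of all genes. S100a8, S100a9, Mpo, Ly6g, Camp, Ngp and Ltf, 7 of the 9, lay below the background gauge. Endothelial markers averaged 8.44, 8.47 and 8.43 in WT 1 to 3, 8.17, 8.42 and 8.17 in WT 4 to 6 and 8.17 to 8.48 in Ppara KO. The part of either cell type in the mitotic differences was not tested.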

How the data were processed

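Liver RNA of 6 WT and 6 Ppara KO mice was read on 1 array per animal. The deposited log2 values were made with RMA and Partek, per the submitters' processing notes, with no version given; neither labels nor values name a genome build for the probes. The table held 41345 transcript clusters, of which the platform annotation gave 23521 with 1 gene symbol, and each of 22180 genes was represented by its brightest cluster on average across the 12 arrays. Of the members, 1 had several clusters (Rrm2). Genes were fitted with limma 3.58.1 in R 4.3.3 (lmFit and eBayes, 1 mean per genotype, no covariate, 2-sided), with Benjamini-Hochberg adjustment over all genes, and were called at an adjusted p under 0.05. The fit was tested on simulated data. The number of arrays limits the precision (median SE of a log2 difference 0.0926).

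The members and the lists were chosen with earlier results of these data known. Named were all measured members and, per further list, up to 4 called genes in order of adjusted p and up to 3 of the highest level without a call. In cell type lists called genes were named. Motifs were searched in the RefSeq promoter table (GRCm38.p6), and list symbols without a match were looked up as synonyms in the RefSeq gene table. Alternatives covered the variance prior, array weights, scaling, dim genes, the choice of cluster, thresholds, the animal number as a block and animals left out.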

Additional observations from a re-analysis of the deposited data

Results flagged for a closer look

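In 124 checks of a highest or lowest animal against its group of 6 (76 of them on single members), 2 animals stood far from the others, where chance gives about 5% of groups. No member had such an animal. The mean of the other DNA replication genes was 4.68 in Ppara KO 4, against 4.60 in the next animal. The mean of Kupffer cell and macrophage markers was 8.48 in Ppara KO 2, against 8.02 in the next animal.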

How the results depend on the processing

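The 21 members called lower (20 of them mitotic) numbered 20 to 22 under the variance prior, array weights, quantile normalization, median centring, averaged clusters and the block by animal number. In these fits 4.44% to 6.73% of all genes were called lower. Members called lower numbered 19 to 24 over the 12 fits without 1 animal (18 to 22 mitotic), beside 4.64% to 5.58% of all genes. Of the 22 called members, 19 were called in every 1 of these 12 fits. Besides Tk1, Aurkb lost its call in 4 of them (without WT 2 or 3 or Ppara KO 2 or 3). Cenpf lost its call in 6 (without WT 1, 2 or 3 or Ppara KO 1, 2 or 5). An adjusted p under 0.01 left 13 members lower, all mitotic, beside 2.94% of all genes. It left 14 other mitosis genes and 2 other replication genes lower, with 0 S phase genes and 0 members higher. Testing in limma for changes beyond 1.2-fold left 8 members lower (all mitotic), beside 1.01% of all genes. It left 5 and 0 of the further lists, with 0 S phase genes and 0 members higher. Restricting the fit to genes no dimmer than the median left 22 members, with 13 called lower (13.9% of all genes in that fit), among them all 10 mitotic genes tested and 3 S phase genes, with 7 and 3 of the further lists. Median centring gave 2 S phase genes lower.

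Without WT 1 to 3 together, 11 members, all mitotic, and 0 S phase genes were lower, with 8 other mitosis and 0 other replication genes. Of all genes 2.29% were then lower. Without WT 4 to 6 together, 3 S phase and 38 other mitosis genes were lower and 0 members higher, beside 3.97% of all genes lower. Both fits follow the split among the WT animals, which was seen in the mitotic members themselves. Over the fits without 1 animal, S phase genes lower ranged from 1 to 3 and members higher from 0 to 2, other mitosis genes lower from 19 to 29, and other replication genes lower from 4 to 7. The difference of E2f1 ranged from -0.097 to 0.027 without 1 animal and turned positive without WT 2 (0.010), WT 3 (0.027), Ppara KO 6 (0.0056) or WT 1 to 3 (0.042). Without WT 1 to 3 those of Mcm6 (0.15), Rrm2 (0.032), Birc5 (0.10) and Kif23 (0.059) did so too, and that of Pcna turned negative without WT 4 to 6 (-0.054). None of these genes was called in any of those fits, and the cause was not tested. With the animal number as a replicate block, 20 members were called lower, 3 other replication genes and 20 other mitosis genes, beside 4.44% of all genes. The numbers do not pair the animals: deviations of same-numbered animals correlated between -0.047 and 0.043, and 1 of 6 WT animals correlated best with its own number.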
